A study of Mus musculus with 12 samples.

Results

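The comparison described here asks which genes of cultured alveolar type II cells responded differently to the loss of a second G protein gene in a Gq/11 background and in a G12/13 background. It is the difference (Gnaq/Gna11 minus Gna11) minus (Gna12/Gna13 minus Gna12), computed for every gene on all 12 of the 12 arrays of the study. Of these arrays 6 belong to the Gq/11 pair and 6 to the G12/13 pair, with 3 arrays per genotype. The genotypes, as the labels name them, are "Gna11 ko", "Gnaq/Ga11 ko", "Gna12 ko" and "Gna12/Ga13 ko", written below as Gna11, Gnaq/Gna11, Gna12 and Gna12/Gna13 cells.

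The cells were isolated from mouse lung and cultured for 7 days on collagen-coated plates, with no further treatment. Per the labels the medium was Lonza's bronchial epithelial growth medium, with keratinocyte growth factor at 10 µg/ml, no hydrocortisone and a change of medium every 3 days. RNA was extracted with Trizol, and 10 ng per sample was amplified, labelled with biotin and hybridised to Affymetrix mouse arrays. Every array of the Gq/11 pair lacks Gna11 and every array of the G12/13 pair lacks Gna12, so each pair differs by 1 further gene, Gnaq or Gna13. No group has all 4 genes intact, so a gene that already responded to the first deletion has no reference level here. The sources used here do not give strain, age, the kind of allele, any Cre driver or the number of animals per sample, nor whether the 3 samples of a group are separate animals or cultures. The p-values therefore measure no more than how far these samples vary, part of which may be technical.

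Gnaq and Gna11 encode alpha subunits that couple receptors to phospholipase C-beta, which raises inositol trisphosphate and cytosolic calcium and activates protein kinase C. Gna12 and Gna13 encode alpha subunits that act on RhoGEF proteins, which load RhoA with GTP and so drive actin assembly and contraction. Many receptors, such as those for lysophosphatidic acid, sphingosine 1-phosphate and thrombin, couple to both families. In alveolar epithelium both routes are known for their part in activation of TGF-beta through integrin alphavbeta6.

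All values are on the log2 scale. A within-pair difference is the mean of the 3 double knockout arrays minus the mean of the 3 single knockout arrays, called the Gq/11 difference and the G12/13 difference. A positive difference between the differences means that the Gq/11 difference was the more positive. Standard errors (SE) and two-sided p-values are those of a linear model fitted with limma to all 18193 genes, with Benjamini-Hochberg adjustment, and genes with an adjusted p under 0.05 count as called.

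The labelled cell type was checked against its markers. The surfactant gene Sftpc was between 12.78 and 13.38 in the 12 arrays, and the type I cell gene Ager (13.18 to 13.51) and the club cell gene Scgb1a1 (13.12 to 13.28) were as high on their own probe sets. Leukocyte genes were present too, with Laptm5 between 10.62 and 12.01 and the macrophage gene Csf1r between 12.01 and 13.15. Of the dendritic cell markers, Flt3 was under the median of all values in 10 of 12 arrays, Zbtb46 in 1 and Ccr7 in 0. In bulk samples fewer cells of a type and less RNA per cell cannot be told apart. Several measures moved with the contrast. The mean of 24 pan-leukocyte genes was 8.62 ± 0.361 (SD, n = 3) with Gna11 lost and 9.38 ± 0.0758 with Gnaq lost too, 9.81 ± 0.354 with Gna12 lost and 9.56 ± 0.461 with Gna13 lost too, which gives a difference between the differences of 1.01. The Gapdh control probe sets, whose 3' minus 5' gap is a sign of RNA shortening, gave a gap of 3.70, 3.14, 3.00 and 3.15 in the same order, a difference between the differences of -0.71. The same gap of the Actb control probe sets moved less, with 3.23, 3.10, 3.00 and 3.17 and a difference between the differences of -0.29. Eif2s3y, on the Y chromosome, was low in all 3 Gnaq/Gna11 arrays and in replicate 2 of each other group, which gives -2.53. Replicate 2 of the Gna11 cells stood farthest out on the second principal component, with a score of 50.9, and had the lowest array weight, 0.489. The calls without these measures and without this array are given after the called genes.

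**Figure D1:**
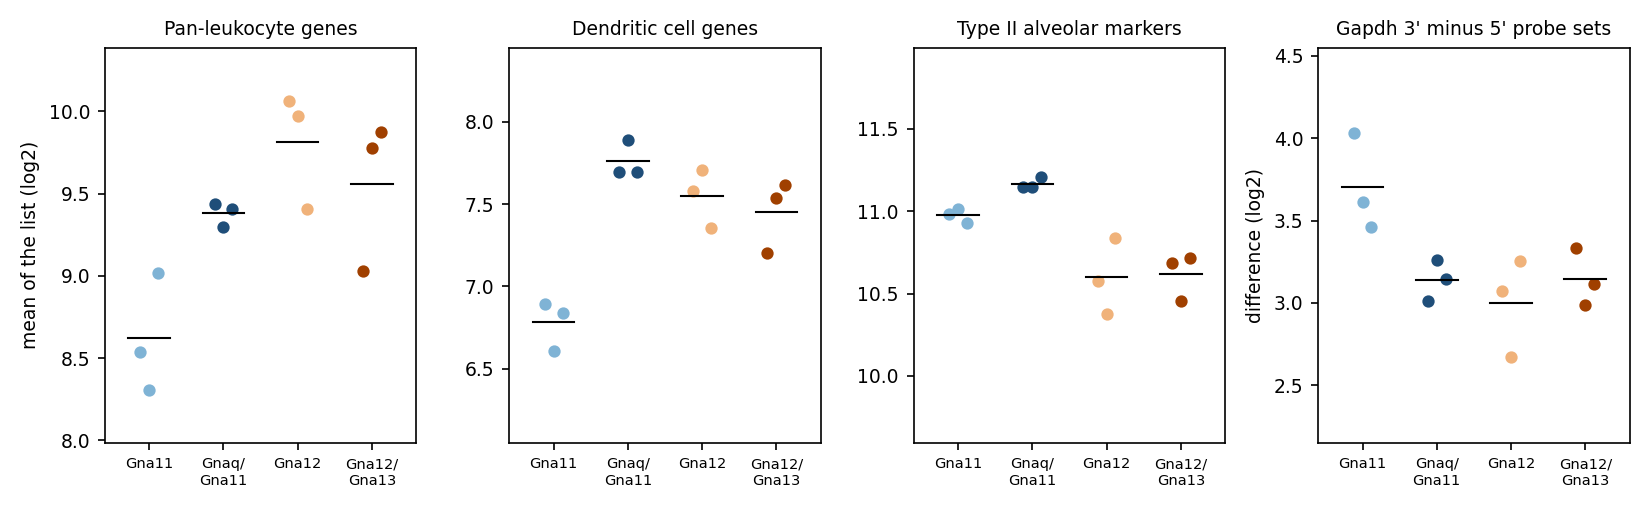
The mean of the pan-leukocyte, dendritic cell and type II marker lists and the Gapdh 3' minus 5' difference in each array (points, log2) with group means (lines), for the 4 genotypes. The Gna11 arrays are lowest in the pan-leukocyte and dendritic cell means, with group means of 8.62 and 6.78, and highest in the Gapdh difference, at 3.70. The type II means are 10.97 in Gna11, 11.17 in Gnaq/Gna11, 10.60 in Gna12 and 10.62 in Gna12/Gna13 cells.

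Few genes passed. Of them 3 are genes of dendritic cell chemokine signalling, 5 encode detoxifying enzymes and 5 are of other kinds. Limma called 13 of 18193 genes in the difference between the differences (0.0715%), 4 of them higher (0.0220%) and 9 lower (0.0495%). The higher genes were Ccl17, Ccl22, Ccr7 and AA467197. The lower genes were Ces1g, Pon1, Aox3, Gstm2, Krtap17-1, Osbpl6, Pgrmc1, Ephx1 and 2310034G01Rik. All 13 were also called between Gnaq/Gna11 and Gna11 cells, where 335 genes (1.84%) passed, 212 higher (1.17%) and the others lower (0.676%), and the Gq/11 difference was the larger of the pair in all 13, as it was in 62.4% of all genes. None was called between Gna12/Gna13 and Gna12 cells, where limma called 0 genes (0%), with 820 at an unadjusted p under 0.05. The within-pair differences had opposite signs in 9 of the 13, against 48.2% of all genes, and the difference between the differences was at least 2-fold in 12. Selection for a large difference between the differences itself favours opposite signs, so this count cannot show an excess. Of the 335 genes called in the Gq/11 pair, 173 (51.6%) had opposite signs. For Ccl17 and Ccl22 the sign rests on G12/13 differences of only -0.07, with overlapping arrays. The next gene in order of p had an adjusted p of 0.0564, close behind the last called gene at 0.0465.

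At a looser adjusted p under 0.10 there were 89 genes (0.489%), of which 49 were higher and 40 lower, and the Gq/11 difference was the larger in 84. With an unadjusted p under 0.05 the count was 1967 genes (10.8%), 950 higher (5.22%) and 1017 lower (5.59%), and in 1601 of them the Gq/11 difference was the larger. Over all genes the Gq/11 differences had an SD of 0.47 and the G12/13 differences one of 0.26. Across the 18193 genes, which are not independent replicates, the within-pair differences had a Pearson correlation of -0.0291 and a Spearman correlation of -0.00182. The pairs share no arrays.

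**Figure D2:**
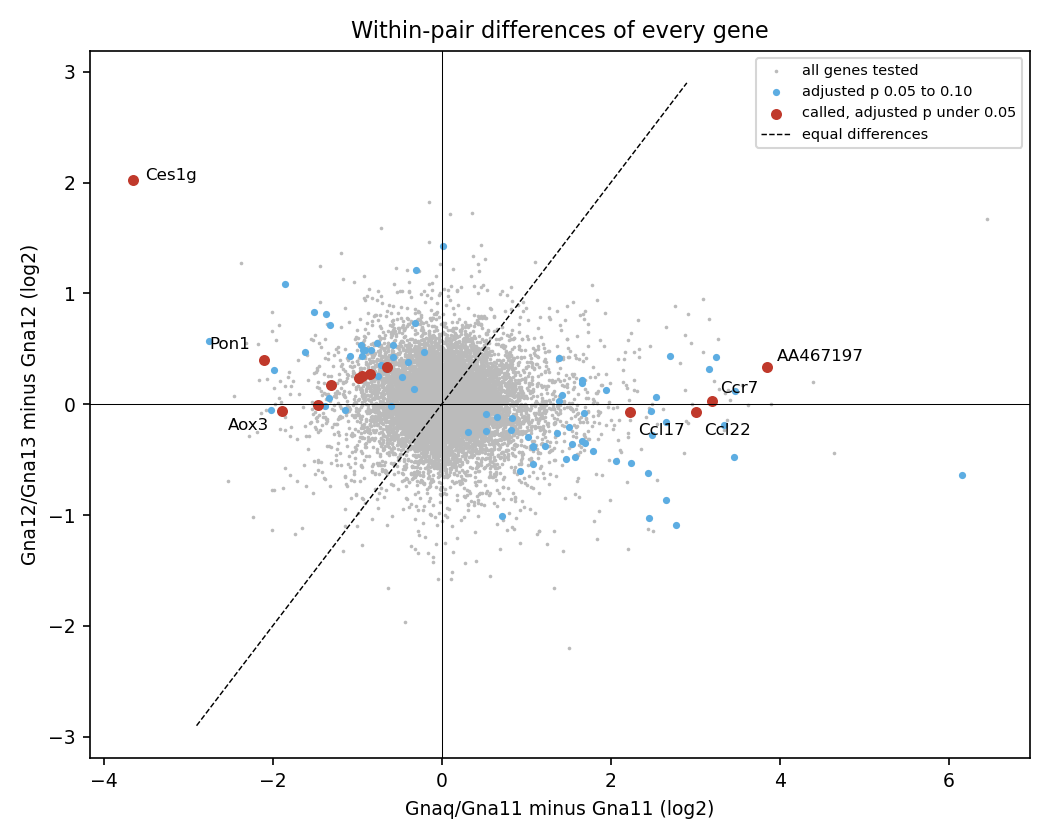
The Gnaq/Gna11 minus Gna11 difference (x axis, log2) against the Gna12/Gna13 minus Gna12 difference (y axis, log2) of every gene. The 13 called genes are coloured, and some of them are named. The called genes lie far from 0 along the x axis, from -3.65 for Ces1g to 3.84 for AA467197, and Ces1g alone of them also lies far from 0 on the y axis, at 2.03.

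The dendritic cell chemokine axis was the clearest of the higher genes. Ccl17 and Ccl22 encode the ligands of Ccr4, a receptor of T helper 2 and regulatory T cells, and Ccr7 is the receptor with which mature dendritic cells migrate to lymph nodes. All 3 were lowest in Gna11 cells. For Ccl17 and Ccr7 the Gnaq/Gna11 arrays were also above all 6 arrays of the G12/13 pair, with means for Ccr7 of 9.56 against 8.63 and 8.65. Ccl17 read 10.64, 10.91 and 11.25 in the Gna11 arrays and 13.19, 13.11 and 13.18 in the Gnaq/Gna11 arrays. It read 12.74, 12.72 and 12.67 in the Gna12 arrays and 12.42, 12.49 and 13.00 in the Gna12/Gna13 arrays. The Gna11 arrays thus lay below all 9 others, and the arrays of the G12/13 pair overlapped. The Gq/11 difference was 2.23 and the G12/13 difference -0.07, so the difference between the differences was 2.30 ± 0.22 (SE, 95% interval 1.81 to 2.79, limma adjusted p = 0.00886). This was the smallest adjusted p of the comparison.

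Ccl22 read 5.83, 6.35 and 6.28 in the Gna11 arrays, 9.03, 9.09 and 9.36 in the Gnaq/Gna11 arrays, against 8.78, 9.35 and 8.57 in the Gna12 arrays and 8.41, 8.59 and 9.48 in the Gna12/Gna13 arrays. Its difference between the differences was 3.08 ± 0.43 (SE, limma adjusted p = 0.0398), with 3.01 in the Gq/11 pair and -0.07 in the G12/13 pair. The pattern was that of Ccl17, with the Gna11 arrays below all 9 others. Ccr7 read 5.79, 6.46 and 6.87 in the Gna11 arrays, 9.21, 9.65 and 9.82 in the Gnaq/Gna11 arrays, against 8.39, 8.84 and 8.64 in the Gna12 arrays and 8.20, 8.56 and 9.20 in the Gna12/Gna13 arrays. The difference between the differences of Ccr7 was 3.17 ± 0.45 (SE, limma adjusted p = 0.0413). Here the Gq/11 pair did not overlap and the G12/13 pair did. Ccl17 and Ccl22 lie near each other on chromosome 8, with only Cx3cl1 between them in the RefSeq gene table of GRCm38.p6. Cx3cl1, the membrane-bound chemokine fractalkine, did not pass, at 0.37 ± 0.26 (SE, limma adjusted p = 0.662).

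The 250 bases before the start of Ccl17 and Ccl22 are shown because these neighbouring genes have the same pattern over the 4 genotypes. They are from RefSeq (GRCm38.p6), chr8:94810203-94810452 and chr8:94745434-94745683, both on the plus strand, 5′ to 3′, and capitals mark the letters AGGTCA, the half-site of nuclear receptors.
Ccl17: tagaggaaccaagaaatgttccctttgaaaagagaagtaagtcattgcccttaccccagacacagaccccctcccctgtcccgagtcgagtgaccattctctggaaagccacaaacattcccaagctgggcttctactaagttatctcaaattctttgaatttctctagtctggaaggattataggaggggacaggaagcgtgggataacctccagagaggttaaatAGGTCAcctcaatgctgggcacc
Ccl22: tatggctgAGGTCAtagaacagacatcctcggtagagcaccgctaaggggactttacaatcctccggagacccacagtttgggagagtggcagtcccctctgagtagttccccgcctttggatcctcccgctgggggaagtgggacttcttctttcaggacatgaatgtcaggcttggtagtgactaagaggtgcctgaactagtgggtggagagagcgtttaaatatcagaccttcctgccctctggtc
Of 7 motifs searched on both strands, AGGTCA alone occurs in both promoters. It begins 23 bases before the start of Ccl17 and 242 bases before that of Ccl22. Of the 12 called genes with a promoter only these 2 hold it, beside 15.8% of 27025 genes in the same window. That is no sign of an excess among the called genes, which was not tested. A core shared by many NF-kappaB sites occurs in neither of these 2 promoters (1.36% of genes). A match is a description of the letters and not a site of binding.

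AA467197, also known as Nmes1, is the fourth higher gene; it has a clone-type symbol, so the rule for naming genes passed over it, and it is named because it is 1 of only 4. It read 4.99, 5.03 and 4.85 in the Gna11 arrays, under the median of all values, and 9.19, 8.64 and 8.56 in the Gnaq/Gna11 arrays. In the G12/13 pair it read 7.42, 7.85 and 7.61 in Gna12 arrays and 7.40, 7.82 and 8.67 in Gna12/Gna13 arrays. The difference between the differences was 3.51 ± 0.42 (SE, limma adjusted p = 0.0196), the largest of the 4, and the within-pair differences had the same sign, 3.84 and 0.34. As with the chemokine genes, the Gna11 arrays lay below all 9 others.

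The leukocyte measures moved with these genes. Of 19 dendritic cell genes 3 were called higher and 0 lower, 17 had a positive difference and the median was 0.67, against a median of -0.02 and 8536 positive of 18193 over all genes. The mean over these 19 genes was 6.78 ± 0.151 (SD, n = 3) in Gna11, 7.76 ± 0.113 in Gnaq/Gna11, 7.55 ± 0.179 in Gna12 and 7.45 ± 0.219 in Gna12/Gna13 cells. The 19 include Ccl17, Ccl22 and Ccr7 themselves, so the counts, the median and these means are in part fixed by the calls. They do not show that the other members were lowest in Gna11 cells. Fscn1, an actin-bundling protein of mature dendritic cells, had a difference between the differences of 4.20 ± 1.17 (SE, limma adjusted p = 0.199), Cd86 of 1.70, Ccl5 of 1.47 and Cd83 of 0.71, none called. Zbtb46, the transcription factor of conventional dendritic cells, was at 0.43 and Flt3 at 0.12. In a fit with the mean of the pan-leukocyte genes as covariate the differences of Ccl17, Ccl22 and Ccr7 were 1.88, 2.47 and 2.57, and none passed (limma adjusted p = 0.128, 0.308 and 0.346).

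Of the 9 genes called lower, 5 encode enzymes that detoxify foreign or reactive compounds. The Gnaq/Gna11 arrays lay below all 9 others for each of these 9 genes, so here the double knockout of the Gq/11 pair stood apart and not the single. The largest difference was that of Ces1g, a carboxylesterase that hydrolyses drugs and lipid esters. Ces1g read 9.89, 8.05 and 9.43 in the Gna11 arrays and 5.48, 5.92 and 5.03 in the Gnaq/Gna11 arrays. It read 8.14, 7.07 and 7.71 in the Gna12 arrays and 8.36, 10.62 and 10.02 in the Gna12/Gna13 arrays. The groups overlapped in neither pair, and the directions were opposite, -3.65 in the Gq/11 pair and 2.03 in the G12/13 pair. The difference between the differences was -5.68 ± 0.84 (SE, 95% interval -7.52 to -3.84, limma adjusted p = 0.0423).

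Pon1, a paraoxonase that hydrolyses organophosphates and lipid peroxides, read 10.98, 11.29 and 11.18 in the Gna11 arrays and 9.03, 9.24 and 8.86 in the Gnaq/Gna11 arrays. It read 11.23, 10.85 and 10.65 in the Gna12 arrays and 11.48, 11.55 and 10.90 in the Gna12/Gna13 arrays. The difference between the differences of Pon1 was -2.51 ± 0.28 (SE, limma adjusted p = 0.0114). Its G12/13 difference, 0.40, lay within overlapping arrays. Aox3, an aldehyde oxidase, read 8.22, 8.17 and 8.20 in the Gna11 arrays, 6.17, 6.36 and 6.41 in the Gnaq/Gna11 arrays, against 8.01, 7.64 and 7.51 in the Gna12 arrays and 7.93, 7.56 and 7.47 in the Gna12/Gna13 arrays. Its difference was -1.82 ± 0.27 (SE, limma adjusted p = 0.0465), nearly all of it from the Gq/11 pair, since the G12/13 difference was -0.06.

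Gstm2, a mu-class glutathione S-transferase, read 11.29, 11.54 and 11.31 in the Gna11 arrays, 10.12, 9.90 and 10.18 in the Gnaq/Gna11 arrays, against 11.24, 11.25 and 11.07 in the Gna12 arrays and 11.39, 11.51 and 11.18 in the Gna12/Gna13 arrays. The difference was -1.49 ± 0.17 (SE, limma adjusted p = 0.0114), from -1.31 and 0.18. Ephx1, the microsomal epoxide hydrolase, read 10.92, 11.06 and 11.01 in the Gna11 arrays, 10.00, 10.30 and 10.14 in the Gnaq/Gna11 arrays, against 10.93, 11.06 and 10.82 in the Gna12 arrays and 11.10, 11.41 and 11.13 in the Gna12/Gna13 arrays. Like Ces1g, Ephx1 had groups that overlapped in neither pair, with differences of -0.85 and 0.28 and a difference between them of -1.13 ± 0.16 (SE, limma adjusted p = 0.0413).

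Pgrmc1, a haem-binding membrane protein that interacts with cytochrome P450 enzymes, read 10.76, 10.86 and 10.69 in the Gna11 arrays and 9.95, 9.69 and 9.85 in the Gnaq/Gna11 arrays. It read 10.19, 10.24 and 10.49 in the Gna12 arrays and 10.73, 10.46 and 10.49 in the Gna12/Gna13 arrays, and its difference was -1.19 ± 0.18 (SE, limma adjusted p = 0.0423). Of the 12 called genes that had a promoter in the RefSeq table, Pgrmc1 alone held TGACNNNGC, the core of the antioxidant response element that NRF2 binds, which occurs in 11.5% of 27025 genes. The 250 bases before its start, chrX:36597943-36598192 of GRCm38.p6 on the plus strand, are shown for that reason, 5′ to 3′, with the match in capitals, 192 bases before the start.
Pgrmc1: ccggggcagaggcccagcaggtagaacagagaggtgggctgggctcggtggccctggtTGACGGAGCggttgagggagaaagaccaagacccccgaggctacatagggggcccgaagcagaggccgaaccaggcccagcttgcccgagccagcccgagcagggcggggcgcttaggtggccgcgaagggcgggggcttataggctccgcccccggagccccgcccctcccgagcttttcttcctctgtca
GCGTG, the core of xenobiotic response elements, was in 5 of the 12 promoters (30.9% of genes), those of 2310034G01Rik, AA467197, Aox3, Ccl17 and Osbpl6. TATAAA was in 3 (14.3%), Ces1g, Ephx1 and Krtap17-1. TGANTCA, the core of AP-1 sites, was in 1 (7.82%), AA467197, and a core of interferon-stimulated response elements in 0 (3.46%). No motif count was tested for an excess over all genes. The match of TGACNNNGC in 1 of 12 promoters is no excess beside 11.5% of all genes.

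The remaining 3 lower genes are of other kinds. Osbpl6, of the oxysterol-binding proteins, read 10.53 to 10.77 in the Gna11 arrays, 9.55 to 9.75 in the Gnaq/Gna11 arrays and, over the 6 arrays of the G12/13 pair, 10.69 to 11.12, with a difference of -1.21 ± 0.17 (SE, limma adjusted p = 0.0398). It is the only called gene with more than 1 probe set, and with the mean of its 5 probe sets the difference was -0.75 (limma adjusted p = 0.275). Krtap17-1, named as a keratin-associated protein of hair, read 11.90 to 12.36, 10.49 to 10.81 and 11.36 to 11.73 in the same order, with a difference of -1.46 ± 0.21 (SE, limma adjusted p = 0.0413) and a G12/13 difference of -0.01. 2310034G01Rik, a RIKEN transcript named because the called genes are few, had a difference of -0.98 ± 0.13 (SE, limma adjusted p = 0.0259). Its groups overlapped in neither pair, with -0.65 in the Gq/11 pair and 0.33 in the G12/13 pair, so with Ces1g and Ephx1 it is 1 of 3 called genes of this kind.

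**Figure D3:**
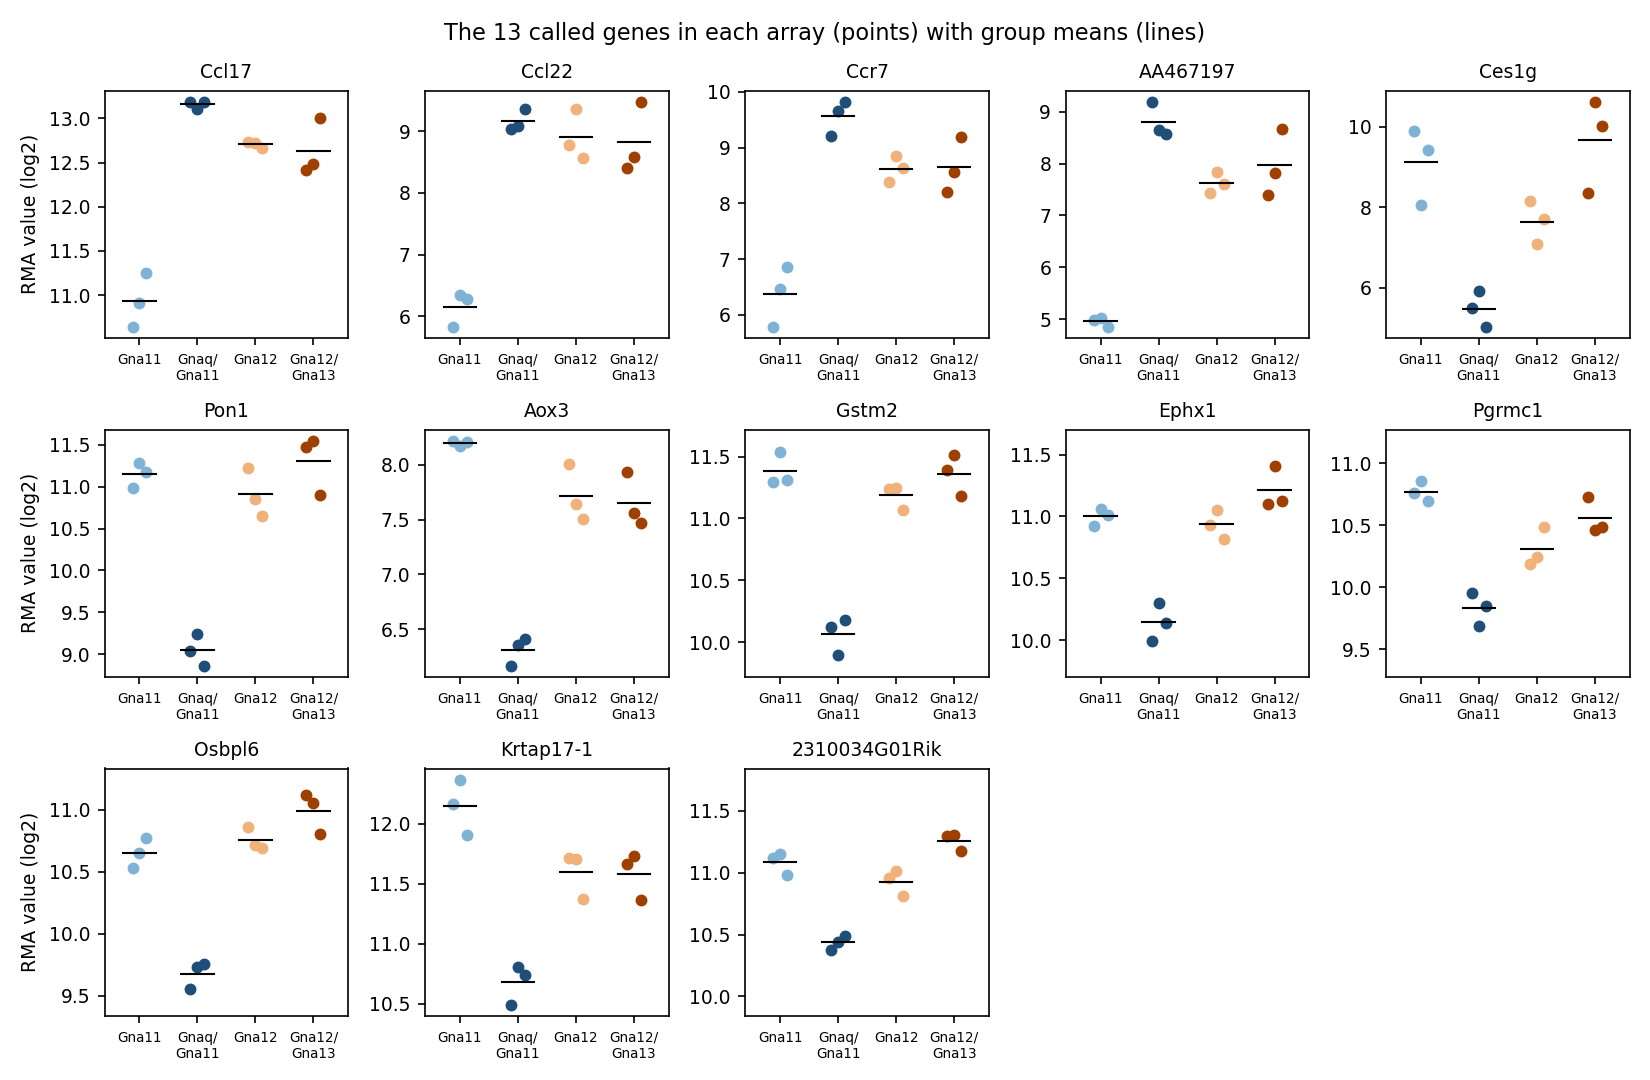
RMA values (log2) of the 13 called genes in each array (points) with group means (lines), for Gna11, Gnaq/Gna11, Gna12 and Gna12/Gna13 cells. For the 4 higher genes the Gna11 arrays lie below all 9 others, and for the 9 lower genes the Gnaq/Gna11 arrays do.

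How far a call held depended on the gene. All 13 kept their sign under each of 24 alternatives. Ccl17, Pon1 and Gstm2 were called under 20 of the 24, AA467197 under 18, 2310034G01Rik under 15, and Aox3, the least often called, under 7. Without replicate 2 of the Gna12 cells 0 genes were called, and without replicate 1 of the Gnaq/Gna11 cells 40 were. With the Gapdh 3' minus 5' difference as a covariate 0 genes passed, and with the pan-leukocyte mean 1 did, which was not among the 13. With Eif2s3y as a covariate 9 passed, 7 of them among the 13.

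The part these measures have in the calls was not tested beyond such fits. With the pan-leukocyte covariate Pon1 was at -2.47, Gstm2 at -1.47 and Ces1g at -7.13, and with the Gapdh difference they were at -2.62, -1.67 and -5.42. Over all 13 genes the adjusted p-values ran from 0.128 to 0.357 with the pan-leukocyte and from 0.138 to 0.259 with the Gapdh covariate, so none passed in either. Without Gna11 replicate 2, Aox3, Pgrmc1 and Ephx1 were not called (limma adjusted p = 0.0542, 0.0558 and 0.0537), at differences of -1.83, -1.15 and -1.10, and the other 10 were.

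Opposite responses in the pairs were counted without a test. The groups did not overlap for 19.7% of all genes in the Gq/11 pair and for 11.3% in the G12/13 pair. Overlap was absent from both pairs, with opposite directions, for 217 genes (1.19%), against 187 (1.03%) with the same direction in both. Of the 217, 158 (0.868%) were lower in Gnaq/Gna11 and higher in Gna12/Gna13 cells, and 59 (0.324%) the other way round. In 49 of them both differences were at least 0.5 in size, 36 of the first kind and 13 of the second. Only 3 of the 217 were called and 30 had an adjusted p under 0.10, and the largest adjusted p among them was 0.669, so most are a pattern of the arrays that did not pass the test.

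Detoxifying enzymes were again among those lower with Gnaq loss and higher with Gna13 loss. Ces1f, the gene next to Ces1g in the RefSeq table, read 6.62, 6.34 and 7.17 in the Gna11 arrays, 5.56, 4.61 and 4.39 in the Gnaq/Gna11 arrays, against 7.57, 7.58 and 7.37 in the Gna12 arrays and 8.29, 9.10 and 8.38 in the Gna12/Gna13 arrays. Its difference between the differences was -2.94 ± 0.47 (SE, limma adjusted p = 0.0564), just short of the threshold, with no overlap in either pair. The glutathione S-transferase genes Gsta2 (-1.37 and 0.82) and Gstm3 (-1.51 and 0.83) had adjusted p-values of 0.0564 and 0.0612. Gstm1, next to Gstm2 on chromosome 3 as is Gstm3, had -0.66 and 0.32, and Gpx2, a glutathione peroxidase of epithelia, -0.95 and 0.43, with adjusted p-values of 0.0813 and 0.0926. Cross-hybridisation between near-identical members of these families was not tested.

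In the other direction, Mpzl2, an adhesion molecule of epithelia and lymphoid tissue, had 1.43 and -1.33, the cytotoxic cell gene Ctsw 1.84 and -1.22, and the immunoglobulin A gene Igha 1.86 and -0.96. Their adjusted p-values were 0.161, 0.162 and 0.174. Krt78, a type II keratin, read 10.18, 10.46 and 10.73 in the Gna11 arrays and 11.13, 10.94 and 11.43 in the Gnaq/Gna11 arrays, and 10.34, 10.65 and 10.62 in Gna12 against 10.00, 9.28 and 9.31 in Gna12/Gna13 arrays, so the pairs moved apart without overlap. Its difference between the differences was 1.72 ± 0.31 (SE, limma adjusted p = 0.0656), and the G12/13 difference was the larger part.

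Most genes of the enzyme lists had a negative difference. Of 28 genes of xenobiotic and aldehyde metabolism 0 were called higher, 3 lower (Ces1g, Pon1 and Aox3) and 25 not, 27 had a negative difference (53.1% of all genes), 20 were lower at an unadjusted p under 0.05 (5.59% of all genes), and the median was -0.86. Their median Gq/11 difference was -0.65 and their median G12/13 difference 0.19, and 21 of 28 had opposite signs (48.2% of all genes). Fmo2, the flavin monooxygenase of lung, had a difference of -1.97 ± 0.32 (SE, limma adjusted p = 0.0567), with 7.12, 6.44 and 6.93 in the Gnaq/Gna11 arrays and 8.13 or more in each of the other 9. Aox1, the other aldehyde oxidase of the list, had -1.52 ± 0.33, Aldh3a1, which oxidises aldehydes of lipid peroxidation, -1.94 ± 0.57, and the retinal dehydrogenase Aldh1a1 -0.74 ± 0.17, none called. The list median ran from -1.06 to -0.63 over the 24 alternatives and was -0.67 with the pan-leukocyte covariate.

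Of 25 NRF2 and glutathione genes 0 were called higher and 2 lower (Gstm2 and Ephx1), 17 had a negative difference (53.1% of all genes), 8 a positive one, 19 had opposite signs (48.2%) and the median was -0.63, made up of -0.13 in the Gq/11 pair and 0.30 in the G12/13 pair. Unlike in the xenobiotic list, the larger median was that of the G12/13 pair. Cbr1, a carbonyl reductase, read 10.53, 10.51 and 10.42 in the Gna11 arrays, 10.35, 10.03 and 10.13 in the Gnaq/Gna11 arrays, against 9.99, 10.00 and 10.01 in the Gna12 arrays and 10.47, 10.69 and 11.03 in the Gna12/Gna13 arrays. Its difference was -1.05 ± 0.20 (SE, limma adjusted p = 0.0856), and the G12/13 difference of 0.73 was the larger part. The microsomal glutathione transferase Mgst1 was at -0.72 and Gsta4, which conjugates lipid aldehydes, at -0.87, neither called. The cystine transporter gene Slc7a11, a classical NRF2 target, went against the list with 2.05 ± 0.91 (SE, limma adjusted p = 0.446).

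**Figure D4:**
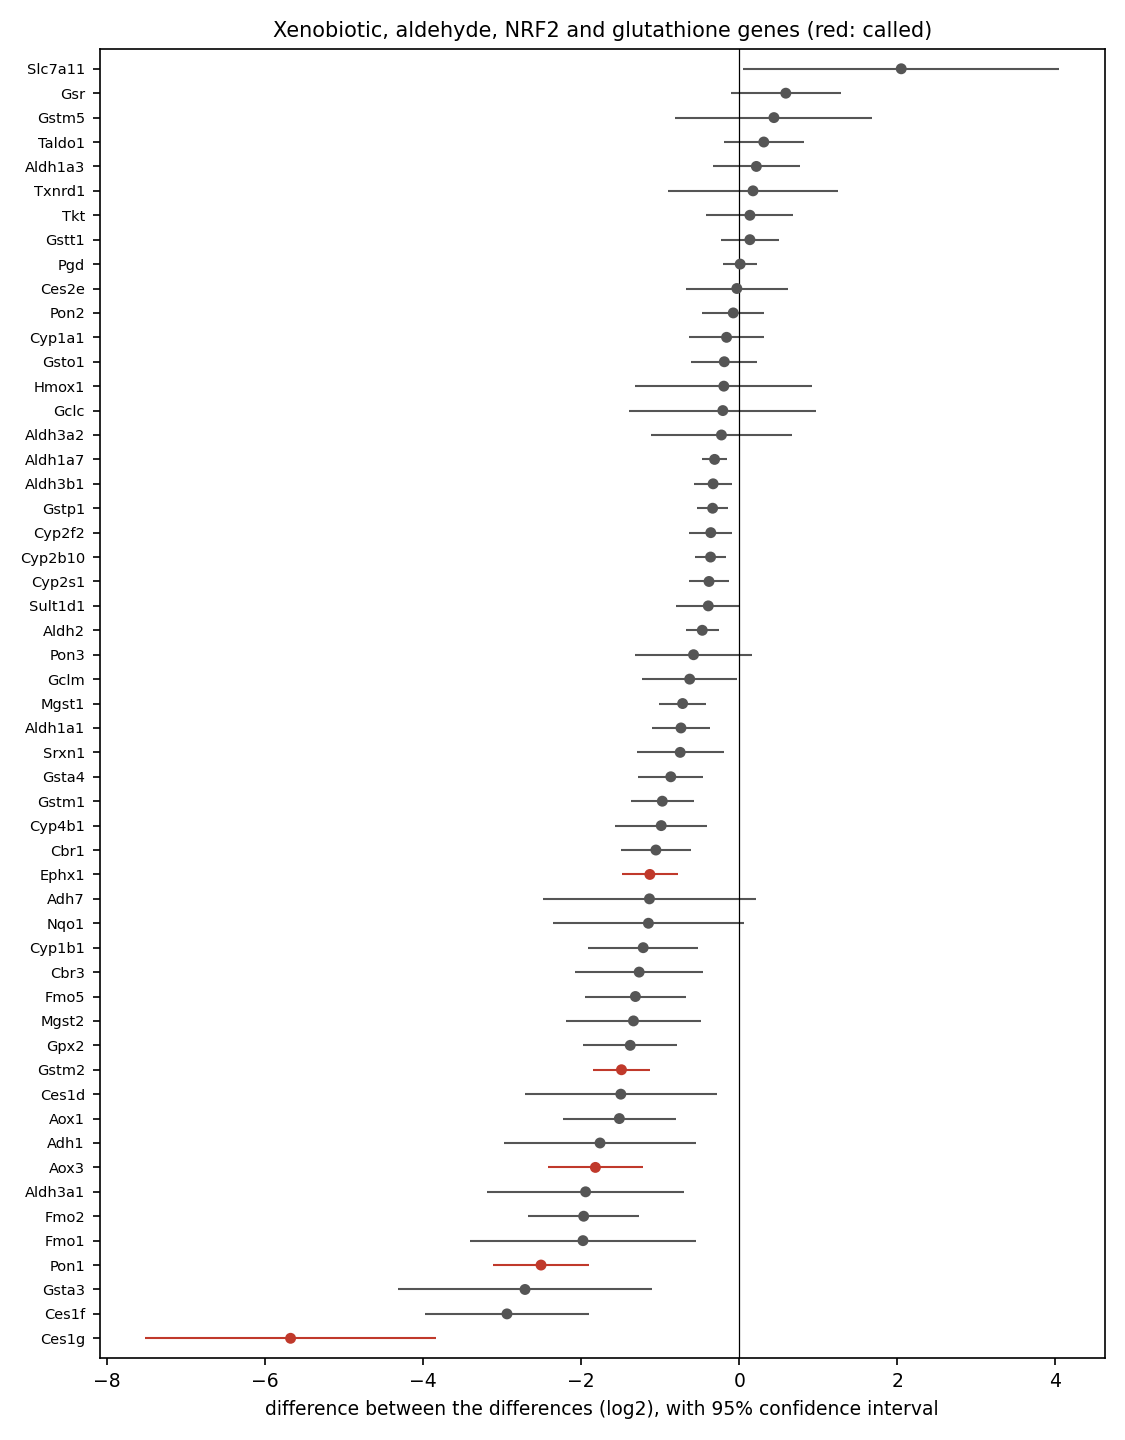
The difference between the differences (x axis, log2, points with 95% confidence intervals) of every measured gene of the xenobiotic and aldehyde list and of the NRF2 and glutathione list, with called genes in red. The 5 called genes, Ces1g, Pon1, Aox3, Gstm2 and Ephx1, are all below 0, and 27 of 28 xenobiotic genes are.

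Of the genes in which the G12/13 difference was the larger of the pair, none was called. Those with the smallest p were of several kinds, Krt78 above among them. Dnah7a, an inner arm dynein of motile cilia, read 7.40, 7.27 and 7.60 in Gna11, 7.40, 6.89 and 7.05 in Gnaq/Gna11, 7.47, 7.38 and 7.12 in Gna12 and between 8.5 and 8.55 in all 3 Gna12/Gna13 arrays. The Gna12/Gna13 arrays alone stood apart, with a difference between the differences of -1.51 ± 0.27 (SE, limma adjusted p = 0.0656). Hoatz, a cilium and flagellum protein, was at -1.89 ± 0.40, and Ift43, of the intraflagellar transport complex, at -0.91 ± 0.19, with adjusted p-values of 0.101 and 0.106. Cyp2r1, a vitamin D 25-hydroxylase, was at -0.68 ± 0.12 (SE, limma adjusted p = 0.0612), but its values of 2.89 to 3.50 lie under the median of all values, where they carry little information, and the same holds for 2010109A12Rik at -1.41 ± 0.26. Akip1, which binds protein kinase A, was at -1.13 ± 0.23 (SE, limma adjusted p = 0.102).

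Of 20 airway, goblet and ciliated cell markers 0 were called, 2 were higher and 8 lower at an unadjusted p under 0.05, and 16 had opposite signs (5.22%, 5.59% and 48.2% of all genes). The list had no shared direction, with 9 positive and 11 negative and a median of -0.07. Ciliated cell genes were negative, such as Ccdc39 at -1.52 ± 0.49 and the master regulator Foxj1 at -0.97 ± 0.44, while the goblet cell gene Clca1 was positive at 3.35 ± 0.66. Clca1 read 6.69, 6.78 and 8.23 with Gnaq and Gna11 lost, and 3.23 to 4.74 in the other 9 arrays, and had an adjusted p of 0.0926. With the mean of all its probe sets the difference of Clca1 was 1.84 (limma adjusted p = 0.124).

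Complement, macrophage and pan-leukocyte genes had the largest positive medians, and of all immune lists only the 3 genes already described were called. Of 21 complement and Fc receptor genes 0 were called, 13 were higher and 1 lower at an unadjusted p under 0.05 (5.22% and 5.59% of all genes), and 20 were positive (46.9% of all genes), with a median of 1.60 (1.01 in the Gq/11 pair and -0.11 in the G12/13 pair). The classical pathway genes C1qa, C1qb and C1qc were at 3.52, 1.90 and 3.01, the inhibitory Fc receptor gene Fcgr2b at 2.72 ± 0.65, and Cd55, which dissociates complement convertases on epithelium, went the other way at -1.33. Of 24 macrophage and monocyte markers 21 were positive with a median of 1.46, and Aif1 was at 3.38 ± 0.82 and Cd68 at 1.76. Of 24 genes of alternatively activated and lipid-associated macrophages 23 were positive with a median of 0.80. Of 20 cathepsin and lysosome genes 19 were positive with a median of 0.58, with Hexa, a lysosomal hexosaminidase, at 0.77 (limma adjusted p = 0.0977).

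The pan-leukocyte genes themselves gave 23 positive of 24, 0 called, 15 higher at an unadjusted p under 0.05 (5.22% of all genes) and a median of 1.02. In this list the Gq/11 median was 0.72 and the G12/13 median -0.19, with 21 of 24 genes of opposite sign (48.2% of all genes). With the pan-leukocyte covariate the median of the complement list was 0.61, that of the macrophage list 0.14, that of the lipid-associated macrophage list 0.13 and that of the cathepsin list 0.26. Of other immune lists, 12 B cell genes had a median of 0.07 and 19 eosinophil, mast cell and neutrophil genes one of -0.13, with 0 called. The 17 T and NK cell genes had a median of 0.12. Of the T cell genes, Cd3e was at 5.36 to 6.19 with a difference of 0.07. Cd3d was at 5.68 to 9.18 with a difference of 2.89 (limma adjusted p = 0.219).

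Antigen presentation and interferon genes were positive to a smaller extent. Of 16 MHC class I presentation genes 13 were positive and 8 higher at an unadjusted p under 0.05 (46.9% and 5.22% of all genes), with a median of 0.57 that was 0.62 with the pan-leukocyte covariate. The class I gene H2-K1 read 9.59, 10.09 and 10.51 in Gna11, 11.57, 11.73 and 11.86 in Gnaq/Gna11, 11.39, 11.47 and 11.65 in Gna12 and 11.62, 11.83 and 11.71 in Gna12/Gna13 arrays, so the Gna11 arrays were again lowest. Its difference was 1.44 ± 0.26 (SE, limma adjusted p = 0.0691), and 0.89 with the mean of all its probe sets. Of 15 class II genes 12 were positive with a median of 0.75, with H2-DMa, which loads peptides, at 1.90 ± 0.33 and the invariant chain gene Cd74 at 0.61 ± 0.11 (limma adjusted p = 0.0612 for both). Of 27 interferon response genes 18 were positive with a median of 0.40, and only 4 had opposite signs, since the median was positive in both pairs, 0.76 and 0.29. The antiviral gene Mx1 was an exception, with 1.48 and -0.49, no overlap in either pair and a difference of 1.97 ± 0.35 (SE, limma adjusted p = 0.0656).

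**Figure D5:**
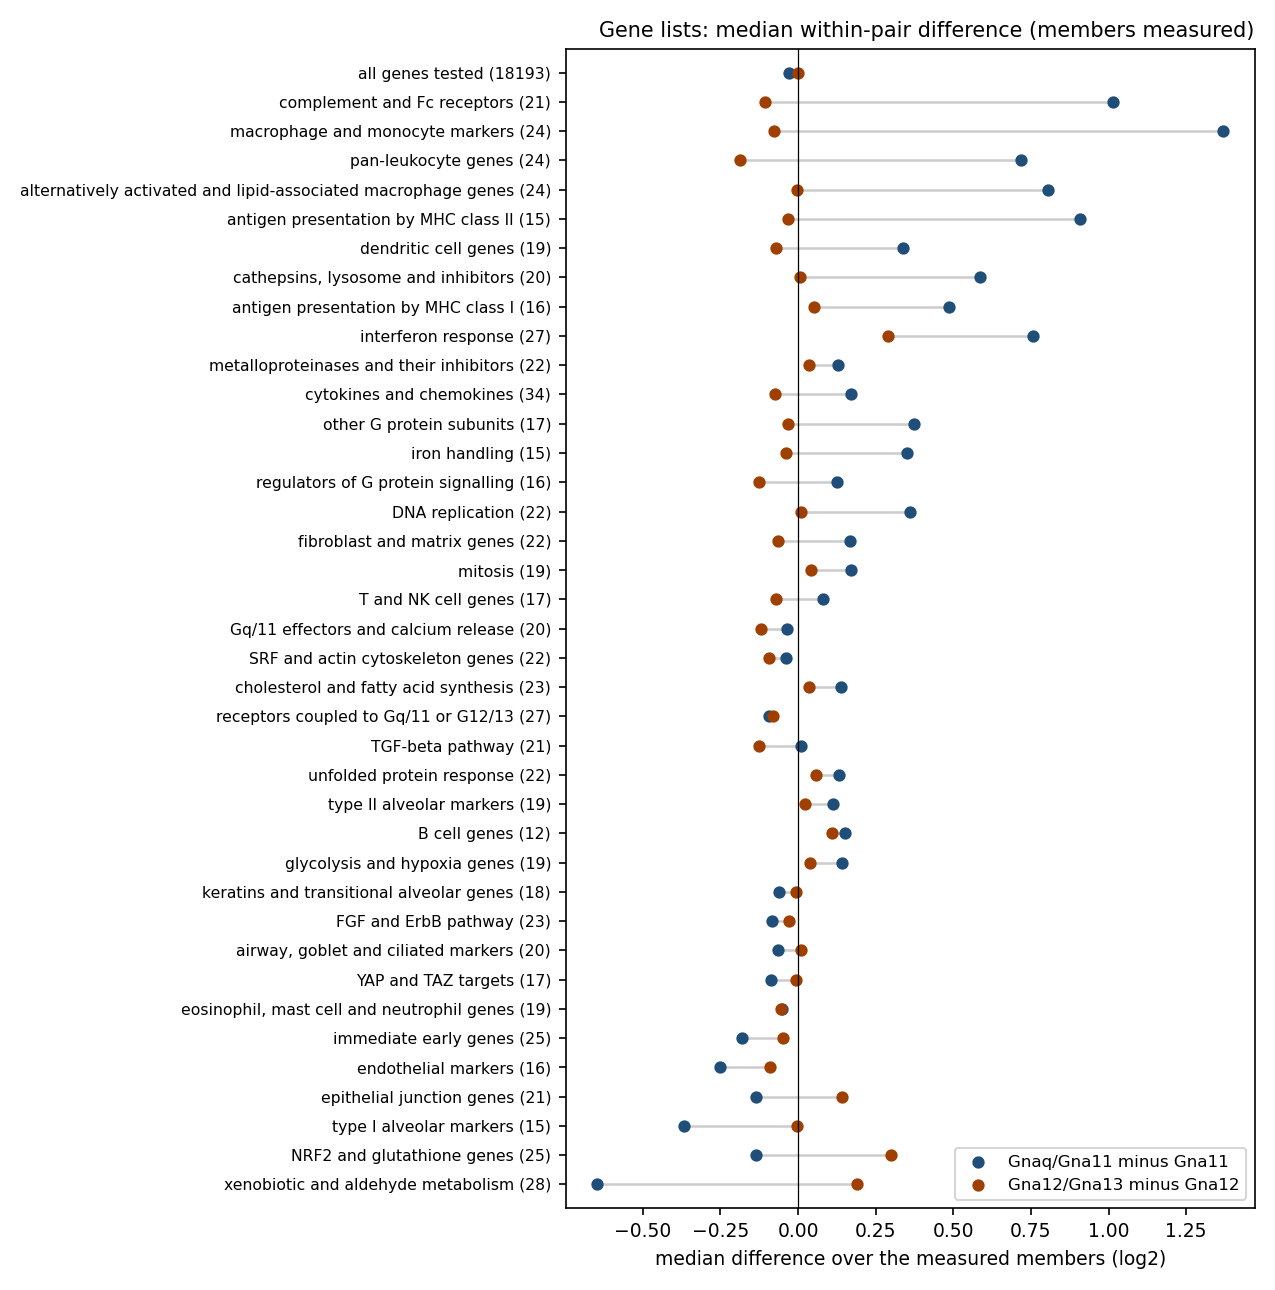
The median over the measured members of each gene list plotted (log2, number of members in parentheses) of the Gq/11 difference and of the G12/13 difference, as 2 points joined by a line, with lists ordered by their median difference between the differences. That median runs from 1.60 for complement and Fc receptors to -0.86 for xenobiotic and aldehyde metabolism, and it is -0.02 over all genes.

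Secreted and matrix genes had single large values. Ext1, a heparan sulfate polymerase, read 6.93, 7.14 and 7.75 in the Gna11 arrays and 8.64 to 9.29 in the other 9, with a difference of 2.05 ± 0.33. Wfdc17, a macrophage protein of the whey acidic protein family, was at 2.81 ± 0.44, Kng1, the kininogen precursor of bradykinin, at 2.47 ± 0.38, and Fbln2, a matrix glycoprotein, at 1.62 ± 0.26, all 4 with an adjusted p of 0.0564. With the mean of all probe sets of a gene, Ext1 fell to 1.29, Kng1 to 1.41 and Fbln2 to 0.76 (limma adjusted p = 0.124, 0.0259 and 0.0613), while Wfdc17 stayed at 2.81. Kng1 was high in the Gnaq/Gna11 arrays alone, at 7.43, 8.65 and 8.08 against 5.17 to 5.80 in the other 9. Proz, protein Z of the coagulation system, had the same pattern, with 10.01, 10.24 and 10.44 against 7.40 to 8.74 and a difference of 2.21 ± 0.36 (SE, limma adjusted p = 0.0567). Rnase2a, an eosinophil-associated ribonuclease, had the largest positive value among all genes, 6.80 ± 1.13 (SE, limma adjusted p = 0.0569). Its Gnaq/Gna11 arrays read 9.44, 9.49 and 11.11 and the others 3.54 to 6.83.

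Of 22 metalloproteinase and inhibitor genes 0 were called and 15 were positive (46.9% of all genes), with a median of 0.38. The inhibitor Timp1 was at 3.93 ± 0.66 and the collagenase Mmp8 at 3.51 ± 0.67. Of 22 fibroblast and matrix genes 16 were positive with a median of 0.23. Col1a1, a chain of type I collagen, read 6.76, 6.57 and 6.37 in Gna11, 8.39, 8.22 and 7.81 in Gnaq/Gna11, 6.49, 6.04 and 6.60 in Gna12 and 5.68, 5.58 and 6.42 in Gna12/Gna13 arrays. Its difference was 2.05 ± 0.37 (SE, limma adjusted p = 0.0691), and the Gnaq/Gna11 arrays were above all others. Beside it, the fibroblast gene Pdgfra was under the median of all values in 11 of 12 arrays.

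In the lists of G protein pathway genes described next 0 genes were called. Of 20 Gq/11 effector and calcium release genes 14 were positive (46.9% of all genes) with a median of 0.12. The store-operated calcium channel gene Orai1 was at 0.97 ± 0.21 and Plcb3, a phospholipase C-beta, at -0.66. With the mean of all probe sets of a gene, Orai1 was at 0.46 and Plcb3 at -0.66. Of 16 regulators of G protein signalling 11 were positive with a median of 0.27, led by Rgs1, which speeds GTP hydrolysis by Gi and Gq subunits, at 1.53 ± 0.30 (SE, limma adjusted p = 0.0926). Of 17 other G protein subunits 10 were positive with a median of 0.34, and Gnai2 was at 0.82 ± 0.18.

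Of 27 receptors that couple to Gq/11 or G12/13, 18 were positive (46.9% of all genes), with a median of 0.11. The lysophosphatidic acid receptor gene Lpar3 read 7.63, 8.01 and 7.90 in Gna11, 6.58, 5.87 and 6.22 in Gnaq/Gna11, 7.67, 7.73 and 7.27 in Gna12 and 7.95, 8.43 and 7.70 in Gna12/Gna13 arrays, with a difference of -2.09 ± 0.36 (SE, limma adjusted p = 0.0605). Its Gnaq/Gna11 arrays lay below all others. The lists downstream of these pathways were near the median of all genes: the median was 0.11 over 22 SRF and actin genes, -0.11 over 17 targets of YAP and TAZ, 0.09 over 21 genes of the TGF-beta pathway and -0.15 over 25 immediate early genes. The sign of the YAP and TAZ median was kept under 17 of 24 alternatives.

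Among the epithelial lists, 19 type II markers had a median of 0.08 and 0 called, with Sftpb at 0.56 ± 0.11 (SE, limma adjusted p = 0.0964) from 0.31 and -0.25. Of 15 type I markers 13 were negative (53.1% of all genes), with a median of -0.35, which was 0.60 with the Gapdh 3' minus 5' difference as a covariate. Of 21 epithelial junction genes 16 were negative and 16 had opposite signs (53.1% and 48.2% of all genes). Their median was -0.22 (-0.27 to -0.13 over the alternatives), and the desmosome genes Dsg2, Pkp2 and Dsp were at -1.49, -0.62 and -0.46, none called. With the mean of all its probe sets Dsp was at -0.13.

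The targeted genes were examined in every probe set, but this contrast can show only the deletions of Gnaq and Gna13, and only on a probe set in the deleted part. The sources used here do not say which do. Gna11 is lost in both groups of its pair and Gna12 in both of the other, so this contrast checks neither label. Between the pairs, 1 Gna11 probe set read 6.86 to 7.83 in the Gq/11 pair and 7.98 to 8.57 in the G12/13 pair. Similarly, 1 Gna12 probe set read 5.61 to 5.91 in the G12/13 pair and 5.97 to 6.22 in the Gq/11 pair. On every other probe set of both genes, the representing ones among them, the arrays of the pairs overlapped. What sets the pairs apart on these probe sets was not tested. On the probe set that represents each gene the difference between the differences was 0.03 for Gnaq, -1.15 for Gna11, 0.05 for Gna12 and 0.30 for Gna13, none called. The Gna11 value rests on replicate 2 of the Gna11 cells, which read 9.66 while the other 11 arrays read 6.86 to 8.29. Of 7 Gna13 probe sets 6 had a positive difference between the differences, up to 1.38. The direction that loss of Gna13 would give is a negative G12/13 difference, which all 7 had, from -1.187 to -0.141. Part of the positive values came from the Gq/11 pair, as on the probe set with 0.712 there and -0.186 in the G12/13 pair. Of 7 Gnaq probe sets 5 had a positive difference between the differences and 2 a negative one, the lowest at -0.79. Loss of Gnaq would give a negative Gq/11 difference. On the representing probe set this was -0.195, beside a G12/13 difference of -0.224. Over the 7 probe sets the Gq/11 difference ran from -0.865, where the groups did not overlap, to 0.275, so the signs were mixed. Within a pair the smallest exact two-sided permutation p is 0.1 with 3 arrays against 3, so no probe set can pass there.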

How the data were processed

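The deposited values are RMA values on the log2 scale, made by the authors with RMA per the submitters' processing notes. The log base is taken as 2 from their range of 2.13 to 14.1, and the sources used here name no genome build. Of 45101 probe sets, 64 were controls, 34945 named 1 gene, 932 several and 9160 none in the platform annotation. Symbols were updated through RefSeq (GRCm38.p6; 34741 matched, 204 kept). For each of 18193 genes the probe set of highest mean over the arrays was kept. Array medians lay between 5.03 and 5.11, and the lowest within-group correlation was 0.963. No filter was applied, and the number of arrays limits the precision.

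In limma 3.58.1 (R 4.3.3) 4 group means were fitted over the 12 arrays, with a trended eBayes prior (8 residual degrees of freedom, 3.19 of the prior), and contrasts were tested two-sided with Benjamini-Hochberg adjustment. The script was tested on simulated data. The genes named are the targeted genes, the 12 largest called differences per direction with a group mean at or above 5.08 and a symbol that is no clone, predicted or RIKEN name (the 8 smallest p where fewer than 6 were called), up to 8 called genes of opposite sign, 8 genes with the larger G12/13 difference, up to 3 members per list by p, and others chosen after their values were seen. Genes and the 40 lists (809 of 874 entries measured) were chosen with earlier results of these data known. Lists were described by counts and medians, with no set test. A position code in the labels has 1 number per pair and separate letters for single and double knockouts. The sources used here do not explain it, and both cancel in this contrast if they add on the log2 scale. Alternatives were other probe set rules, moderation, weights, scalings, covariates, blocks and leaving out each array. The result of 1 list is not reported here.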

Additional observations from a re-analysis of the deposited data

Results flagged for a closer look

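The test of the difference between the pairs itself set 13 genes apart, with limma adjusted p-values from 0.00886 to 0.0465. The lower genes were Ces1g at -5.68, Pon1 at -2.51, Aox3 at -1.82, Gstm2 at -1.49, Krtap17-1 at -1.46, Osbpl6 at -1.21, Pgrmc1 at -1.19, Ephx1 at -1.13 and 2310034G01Rik at -0.98. The higher genes were AA467197 at 3.51, Ccr7 at 3.17, Ccl22 at 3.08 and Ccl17 at 2.30. The pan-leukocyte mean (1.01) and the Gapdh 3' minus 5' difference (-0.71) moved with the same contrast.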

How the results depend on the processing

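Against 13 genes called (4 higher, 9 lower, 9 of opposite sign), the mean of all probe sets gave 35 (18, 17, 27), no intensity trend 22 (8, 14, 16), array weights 28 (12, 16, 22) and only genes at or above the median level 43 (22, 21, 34). The pan-leukocyte covariate gave 1 (1, 0, 1), and 0 (0, 0, 0) were called with the Gapdh covariate, a replicate block by position letter or no moderation. Testing every probe set gave 9, with 3 lower. With group means removed, same-numbered arrays of different groups correlated by -0.0375 to 0.271, over 0.1 in 6 of 18 pairs. Arrays of different numbers correlated by -0.2845 to 0.1546, over 0.1 in 2 of 36 pairs. Replicate numbers are not stated to pair samples, so the main fit had no block. Whether they do was not tested. The replicate block gave 16 genes, 10 higher and 6 lower, 9 of them among the 13. Leaving out 1 array gave 0 (without Gna12 replicate 2) to 40 (without Gnaq/Gna11 replicate 1) called genes, 0 to 15 higher, 0 to 26 lower and 0 to 33 of opposite sign. Without Gna11 replicate 1 or Gna12/Gna13 replicate 2 there were 4, and without Gna12 replicate 1, Gna12/Gna13 replicate 1 or Gnaq/Gna11 replicate 3 there were 6, 7 and 8. Without Gna11 replicate 2 or 3 or Gna12/Gna13 replicate 3 there were 22, 24 and 28. For single genes, 2995 of 3207 alternative values kept their side, 134 were weaker, 63 stronger and 15 of the other sign. Those 15 were small: Gnaq at -0.0008 with a further quantile normalization, -0.0335 with Eif2s3y as a covariate and, without 1 array, -0.0623 to 0.1482; Gna12 at -0.0177 with the mean of probe sets, -0.1521 with the Gapdh and -0.0889 with the Eif2s3y covariate and, without 1 array, -0.06 to 0.1323; and Sema3e at 0.0586 with the Gapdh covariate. The causes were not tested. Depth has no counterpart here, and genes under the median level carry little information.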

Other observations

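Cilium genes, grouped by symbol stem after the values had been seen, were mostly negative beyond Dnah7a. Of 78 measured genes 0 were called, 34 were lower and 0 higher at an unadjusted p under 0.05 (5.59% and 5.22% of all genes), 69 were negative (53.1%) and 60 had opposite signs (48.2%), with a median of -0.71. Their median Gq/11 difference was -0.41 and their median G12/13 difference 0.31, and the median difference ran from -0.94 to -0.50 over the 24 alternatives. Ift122, of the intraflagellar transport complex, read 9.56, 9.39 and 9.19 in Gna11, 8.56, 8.63 and 8.63 in Gnaq/Gna11, 8.90, 8.91 and 8.77 in Gna12 and 9.49, 9.54 and 9.20 in Gna12/Gna13 arrays, with no overlap in either pair and a difference of -1.32 ± 0.22 (SE, limma adjusted p = 0.0567). The radial spoke gene Rsph4a was at -1.28 and the tektin gene Tekt2 at -1.35, neither called. Outside the 78 genes, Wdpcp, a planar polarity effector of ciliogenesis, was at -1.77 and not called. The outer arm dynein gene Dnah5 was at -0.15 ± 0.36.

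Enzyme families grouped in the same way were mostly negative, beside 53.1% negative of all genes. Of 23 glutathione S-transferase genes 17 were negative with a median of -0.48, of 13 carboxylesterase genes 12 with a median of -0.49, of 20 aldehyde dehydrogenase genes 14 with a median of -0.31, and all 4 flavin monooxygenase genes with a median of -1.64. The 3 aldehyde oxidase and 3 paraoxonase genes were negative too, with medians of -1.52 and -0.58. Nearer to the median of all genes, -0.02, 32 of 55 cytochrome P450 genes were negative with a median of -0.06, 8 of 13 sulfotransferase genes with -0.04, 8 of 10 glucuronosyltransferase genes with -0.06 and 10 of 15 aldo-keto reductase genes with -0.12. Of 18 CC chemokine genes 2 were called higher, Ccl17 and Ccl22, and 11 were positive (0.0220% and 46.9% of all genes). Ccl8, which attracts monocytes, was at 3.88 ± 0.90 (SE, limma adjusted p = 0.138). Of 29 coagulation and kinin genes 6 were higher and 0 lower at an unadjusted p under 0.05 (5.22% and 5.59% of all genes), with a median of 0.03.

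Meg3, an imprinted long noncoding RNA, was the gene called once the pan-leukocyte mean entered as a covariate. It read 10.30, 10.40 and 9.18 in Gna11, 12.49, 12.13 and 12.61 in Gnaq/Gna11, 10.50, 9.97 and 12.04 in Gna12 and 10.39, 9.79 and 9.26 in Gna12/Gna13 arrays, and its difference without the covariate was 3.47 ± 0.70 (SE, limma adjusted p = 0.0926).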
